A study of Mus musculus with 6 samples.

Results

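The Rab GTPase genes of mouse macrophages were compared between cells given medium of apoptotic chondrocytes and cells given medium of normal chondrocytes. Members were taken by name alone, as gene symbols made of Rab and a number with an optional letter, which gave 59 of the 52550 genes in the deposited table, with no symbol repeated. The cells were bone marrow-derived macrophages of C57BL/6 mice, grown for 7 days with the growth factor M-CSF at 25 ng/ml. Of the 6 samples, 3 received medium of apoptotic chondrocytes (AC CM) and 3 received medium of normal chondrocytes (C CM), and RNA was read by mRNA sequencing. Both groups share the strain, the M-CSF culture and exposure to chondrocyte medium, and no sample without chondrocyte medium was analysed here. The labels do not give how apoptosis was brought about, how long the medium was applied or which animals or cultures the samples came from. P-values therefore rest on the spread among these 6 libraries alone, and that spread may be technical.

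Rab proteins are small GTPases that switch between a membrane-bound GTP form and a GDP form held in the cytosol. Each marks certain membranes, such as early endosomes, lysosomes or secretory granules, and recruits the effector proteins that move, tether or fuse vesicles there. In macrophages they order the uptake and breakdown of phagocytosed material, the recycling of surface receptors and the release of stored and newly made proteins. Exchange factors load a Rab with GTP, GTPase-activating proteins switch it off, and a lipid added to cysteines at its C-terminal end holds it in the membrane.

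Those cysteines are shown here as a feature that the members share besides their name, and not as the only such feature. In the GENCODE M21 transcripts of GRCm38, 50 of the 59 coding sequences had a pair of cysteine codons at the end. In 20 the pair was split by another codon, in 15 both codons closed the sequence, and in 15 the pair was followed by further codons. The other 9, among them the abundant Rab8a and Rab8b, had a single cysteine codon within the last 5. The last 8 codons of the members whose values are described most fully below are given 5′ to 3′ with the cysteine codons in capitals, each pair of related genes together.
Rab7b: ggccagccaaagagcagaTGCTGC
Rab7: gcctccgcagaaagcTGCagtTGT
Rab6b: gccagcgagggcggcTGCtccTGT
Rab6a: gtcaatgaaggcggcTGTtccTGC
Rab32: acaaagcccaggtcccagTGCTGC
Rab38: agcTGCtctggcTGTgccaaatcc
Rab1a: aagcagtcaggtggaggcTGCTGC
Rab1b: aagcctgctagcggtggcTGCTGC
Rab27a: aaggagaaggggttgTGTggcTGT
Rab44: accaagagagctggcTGCTGCcac
Within these lines Rab7b ended in adjacent cysteine codons and its relative Rab7 in a split pair, while Rab6a and Rab6b carried the same split pattern.

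The libraries held between 65630784 and 80105872 counts, and the replicates within each group differed beyond sampling noise (chi-square of at least 27 per gene). C CM replicate 1 stood further from C CM replicates 2 and 3 (61.0 and 62.7 per gene) than those did from each other (27.0). Between AC CM replicates the values were 29.6 to 36.8. Levels are given in CPM, the counts of a gene scaled to a common library total, with TMM-scaled library sizes, and values after ± are SD over n = 3 samples. Genes of macrophages were abundant in both groups, with Lyz2 at 10838 CPM after AC CM and 11435 CPM after C CM on average, and the 12 macrophage markers summed to between 21749 and 22736 CPM after AC CM and between 23399 and 24977 CPM after C CM. Genes of hepatocytes were uneven between libraries, with 8 markers summing to 47.9, 587 and 1316 CPM in AC CM replicates 1, 2 and 3 and to 41.7, 1.62 and 0.313 CPM in C CM replicates 1, 2 and 3. The part of these transcripts in the results was not tested, but the counts of Rab genes, regulators, effectors and all genes called were also made without AC CM replicates 2 and 3. In bulk RNA, fewer cells of a type and less RNA per cell cannot be told apart.

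Of the 59 Rab genes, 55 had enough counts to be tested, 7 were higher after AC CM, 8 were lower and 40 did not pass the threshold, an adjusted p under 0.05 by the quasi-likelihood test of edgeR over all genes. That is 27.3% of the members tested, and 26.5% of all 17863 genes tested were called, so the share of Rab genes called lay near the background. In each direction the members also lay near the background, with 12.7% higher and 14.5% lower where 13.3% of all genes were called each way. The median log2 fold change of the members was 0.04, and that of all genes was within 0.01 of 0. Among genes with a mean of at least 5 CPM, 31.0% of 42 members and 34.6% of all genes were called. The groups did not overlap for 13 members with AC CM above and 12 with AC CM below, where 22.6% and 22.1% of all genes had no overlap. Of the 8 falls 4 reached 2-fold, where 740 of the 2371 falls over all genes did (4.14% of genes tested), and of the 7 rises 0 did, where 375 of the 2370 rises over all genes did (2.1%). Of those 4 falls, Rab38 and Rab27b lost their call in most fits that left out 1 sample. Without AC CM replicates 2 and 3, which leaves 1 AC CM sample, 2 members (Rab7b and Rab32) were higher and 4 (Rab6b, Rab44, Rab38 and Rab27a) were lower, and Rab11a, Rab14 and Rab9 lost their call in that fit alone. Of the fits that left out 1 sample, those without AC CM replicate 1, AC CM replicate 2 and C CM replicate 2 gave 5, 4 and 4 members lower in place of 8. The 4 members not tested were close to silent. Rab3c and Rab9b had 0 counts in every library, which allows up to 3 counts, or 0.0376 to 0.0458 CPM. Rab17, known from epithelia, had counts in AC CM replicate 3 alone, at 0.251 CPM, the library with the most hepatocyte transcripts. Rab25, also epithelial, was at 0.142, 0.168 and 0 CPM after AC CM and at 0, 0.0731 and 0.0746 CPM after C CM.

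**Figure D1:**
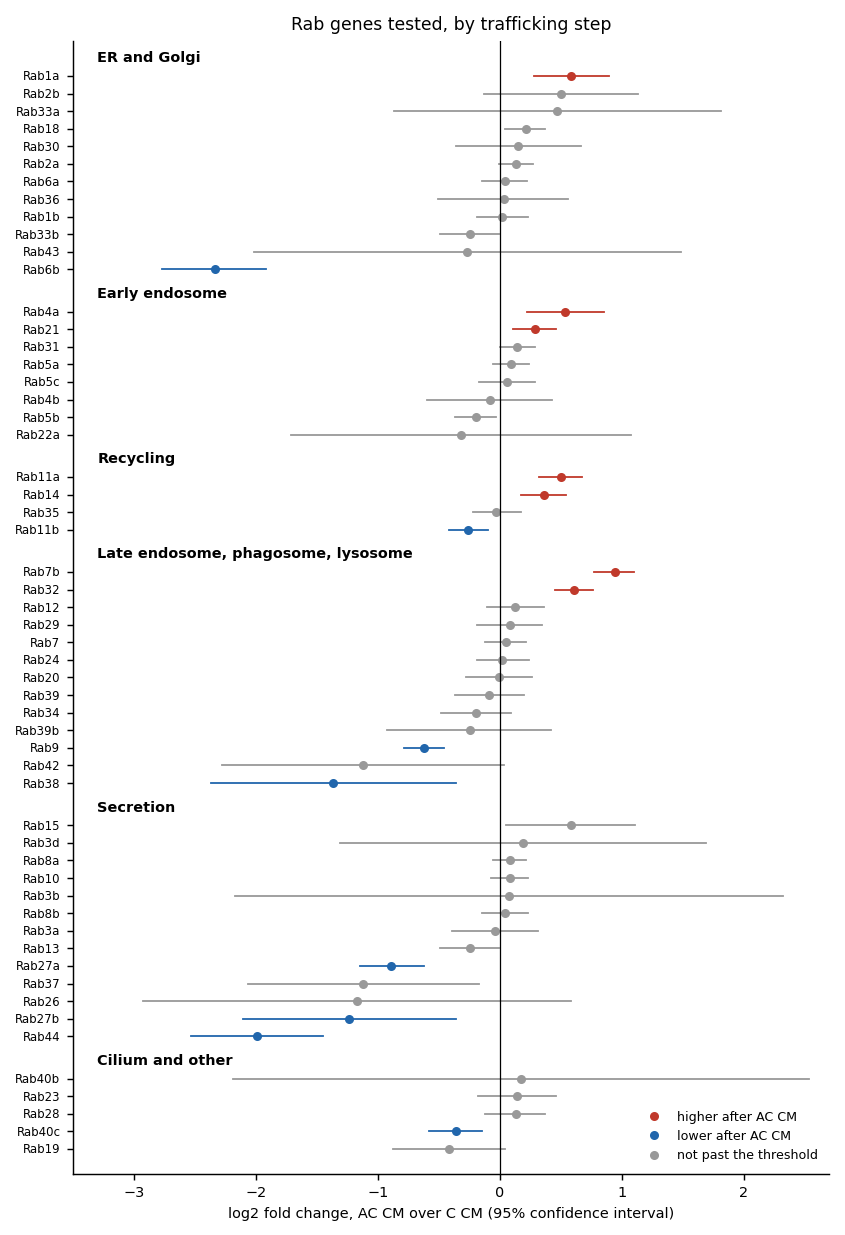
Log2 fold change (AC CM over C CM) of the 55 Rab genes tested, grouped by the trafficking step they are known for, with points for the estimate and lines for its 95% confidence interval. The 7 genes in red were higher after AC CM and the 8 in blue lower, the largest being Rab7b at 0.94 and Rab6b at -2.34.

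Levels between genes were compared per kilobase of exons. Rab5c, which drives fusion of early endosomes, stood first with 153, 149.7 and 149.9 CPM per kilobase after AC CM and 167, 122 and 144 after C CM, so the C CM samples spanned the AC CM samples. Rab7, the main Rab of late endosomes and of their fusion with lysosomes, had 112, 111 and 130.4 CPM per kilobase after AC CM and 114, 115 and 114 after C CM. Rab8b, which carries cargo from the Golgi to the plasma membrane, had 118, 113 and 117 CPM per kilobase after AC CM and 97.9, 122 and 117 after C CM. In all 3 genes the groups overlapped, and the means of Rab7 and Rab8b differed by less than the spread of Rab8b after C CM. Rab1b, of transport between the endoplasmic reticulum (ER) and the Golgi, had 85, 86.5 and 87.5 CPM per kilobase after AC CM and 97.8, 80.9 and 76.5 after C CM, again with overlap. Rab1a, its close relative, had 113, 89.2 and 109.9 CPM per kilobase after AC CM and 70.5, 80.5 and 57.3 after C CM. Every AC CM sample of Rab1a lay above every C CM sample, so Rab1a had the higher mean of the pair after AC CM (104 ± 12.8 against 86.3 ± 1.27 CPM per kilobase for Rab1b) and the lower mean after C CM (69.4 ± 11.6 against 85.1 ± 11.3, with overlapping samples).

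All members together took 4746, 4657 and 4758 CPM after AC CM and 4126, 4426 and 4324 CPM after C CM. The 3 AC CM samples lay above the 3 C CM samples, with means of 4721 ± 55.3 and 4292 ± 153 CPM, a difference of 429 CPM or 10%. Of that difference Rab7b gave 149 CPM, Rab1a 131 CPM and Rab14 61.0 CPM. Without these 3 genes the sums were 3735 ± 6.4 CPM after AC CM and 3647 ± 110 CPM after C CM, a difference of 2.4%. No test was made of these sums.

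Calls are given next by trafficking step, with shares of the members tested, where 13.3% of all genes were called each way. Differences between the steps were not tested. Among the 12 genes of the ER and Golgi, 1 rose (8.33%), 1 fell (8.33%) and 10 did not pass the test. Rab1a, which works in the first step out of the ER, had 428, 339 and 418 CPM after AC CM and 268, 306 and 218 CPM after C CM. The lowest AC CM sample, replicate 2, lay above the highest C CM sample, also replicate 2, and the log2 fold change was 0.58 (SE 0.13, adjusted p = 0.0137 by edgeR). With C CM replicate 1 left out Rab1a did not pass (adjusted p = 0.129), nor did it with AC CM replicate 1 as the single AC CM sample (adjusted p = 0.0566). Rab6b, a form of the Golgi Rab6 known mostly from neurons, had 4.61, 4.73 and 2.91 CPM after AC CM and 19.7, 22.0 and 20.5 CPM after C CM. All AC CM samples were below all C CM samples, and the fall was 5.07-fold (log2 fold change -2.34, SE 0.19, adjusted p = 4.8e-05), the largest change of any Rab gene called. Its ubiquitous relative Rab6a averaged 78.2 ± 3.18 CPM after AC CM and 76.2 ± 6.73 CPM after C CM, with a log2 fold change of 0.04 (95% confidence interval -0.15 to 0.22). The remaining 9 genes of these membranes, Rab1b, Rab2a, Rab2b, Rab18, Rab30, Rab33a, Rab33b, Rab36 and Rab43, had log2 fold changes between -0.27 and 0.50 with no call. Rab18, found on the ER and on lipid droplets, averaged 114.5 ± 4.01 CPM after AC CM and 99.3 ± 7.33 CPM after C CM without overlap, at an adjusted p of 0.0699 by edgeR.

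Of the 8 genes of early endosomes, 2 rose (25.0%, and 13.3% of all genes) and 6 did not pass. Rab4a, which returns receptors from early endosomes to the surface by a short route, had 6.22, 5.93 and 5.90 CPM after AC CM and 4.35, 3.80 and 4.31 CPM after C CM. The groups did not overlap, and the change on the log2 scale was 0.53 (SE 0.14, adjusted p = 0.0223 by edgeR). Rab21, which carries integrins inward, had 109.0, 114 and 116 CPM after AC CM and 84.0, 101 and 93.6 CPM after C CM, again without overlap (log2 fold change 0.29, SE 0.08, adjusted p = 0.0272). Both calls were lost with fewer samples. Leaving out any 1 of the AC CM samples raised the adjusted p over 0.05 for either gene. So did leaving out C CM replicate 2 for Rab4a and C CM replicate 3 for Rab21, with values up to 0.0837 and 0.105. Over all fits that left out 1 sample the log2 fold change was 0.47 to 0.57 for Rab4a and 0.22 to 0.35 for Rab21. The 3 forms of Rab5, the Rab that defines early endosomes and young phagosomes, were not called. Rab5a had a log2 fold change of 0.09 (95% confidence interval -0.06 to 0.24), Rab5c of 0.06 (-0.17 to 0.29) and Rab5b of -0.20 (-0.37 to -0.03, adjusted p = 0.0777 by edgeR). Rab5b passed without C CM replicate 1, at -0.27 with an adjusted p of 0.0023. Rab31, Rab4b and Rab22a had log2 fold changes of 0.14, -0.08 and -0.32.

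Of the 6 genes of recycling membranes, 4 were tested, 2 of them rose, 1 fell and 1 did not pass. Rab11a, the main Rab of recycling endosomes, had 133, 126 and 125 CPM after AC CM and 84.6, 99.5 and 87.5 CPM after C CM. The AC CM samples all lay above the C CM samples, with a change of 0.50 on the log2 scale (SE 0.08, adjusted p = 0.0017 by edgeR). Rab11b, its close relative, moved the other way, with 47.4, 46.0 and 47.7 CPM after AC CM and 55.6, 59.6 and 53.9 CPM after C CM (log2 fold change -0.26, SE 0.07, adjusted p = 0.0265), but this call was lost in 4 of the 6 fits that left out 1 sample, each AC CM sample and C CM replicate 2, with an adjusted p of up to 0.105. Rab14, which links endosomes with the Golgi and sits on young phagosomes, had 278, 278 and 282 CPM after AC CM and 191, 231 and 233 CPM after C CM (log2 fold change 0.36, SE 0.08, adjusted p = 0.0129). No C CM sample of Rab14 reached the AC CM samples. Rab35, of a fast route back to the plasma membrane, averaged 82.1 ± 0.686 CPM after AC CM and 83.7 ± 9.47 CPM after C CM.

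Among the 13 genes tested of late endosomes, phagosomes and lysosomes, 2 rose, 2 fell and 9 did not pass. That is 15.4% each way, and 13.3% of all genes. Rab7b, which lies between late endosomes and the Golgi and is known to limit Toll-like receptor traffic in macrophages, had 310.3, 308 and 316 CPM after AC CM and 147, 172 and 169 CPM after C CM. Every AC CM sample lay far above every C CM sample, and the rise of 1.91-fold (log2 fold change 0.94, SE 0.07, adjusted p = 4.5e-05 by edgeR) was the largest of any Rab gene called. Rab32, which builds lysosome-related organelles and works on phagosomes that hold bacteria, had 109.9, 119 and 109 CPM after AC CM and 70.2, 74.3 and 77.3 CPM after C CM. The groups were well apart (log2 fold change 0.61, SE 0.07, adjusted p = 0.000355). Rab9, which returns mannose 6-phosphate receptors from late endosomes to the Golgi, had 29.3, 28.3 and 29.1 CPM after AC CM and 43.1, 45.3 and 45 CPM after C CM. Its AC CM samples were all lower than its C CM samples (log2 fold change -0.62, SE 0.07, adjusted p = 0.000379). Rab38, the close relative of Rab32 in melanosome formation, was scarce, with 0.511, 0.595 and 1.62 CPM after AC CM and 2.71, 2.63 and 1.72 CPM after C CM. AC CM replicate 3 came near C CM replicate 3, and the fall (log2 fold change -1.37, SE 0.44, adjusted p = 0.0497) was lost in 5 of the 6 fits that left out 1 sample, all except that without AC CM replicate 3 (-2.08), with an adjusted p of up to 0.153. Rab7 averaged 307.5 ± 28.5 CPM after AC CM and 298 ± 1.23 CPM after C CM, with a log2 fold change of 0.05 (95% confidence interval -0.12 to 0.21). The other 8, Rab12, Rab20, Rab24, Rab29, Rab34, Rab39, Rab39b and Rab42, had log2 fold changes between -1.12 and 0.12, and all but the low Rab42 (0.441 ± 0.256 CPM after AC CM and 0.966 ± 0.447 CPM after C CM) were within 0.25 of 0.

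**Figure D2:**
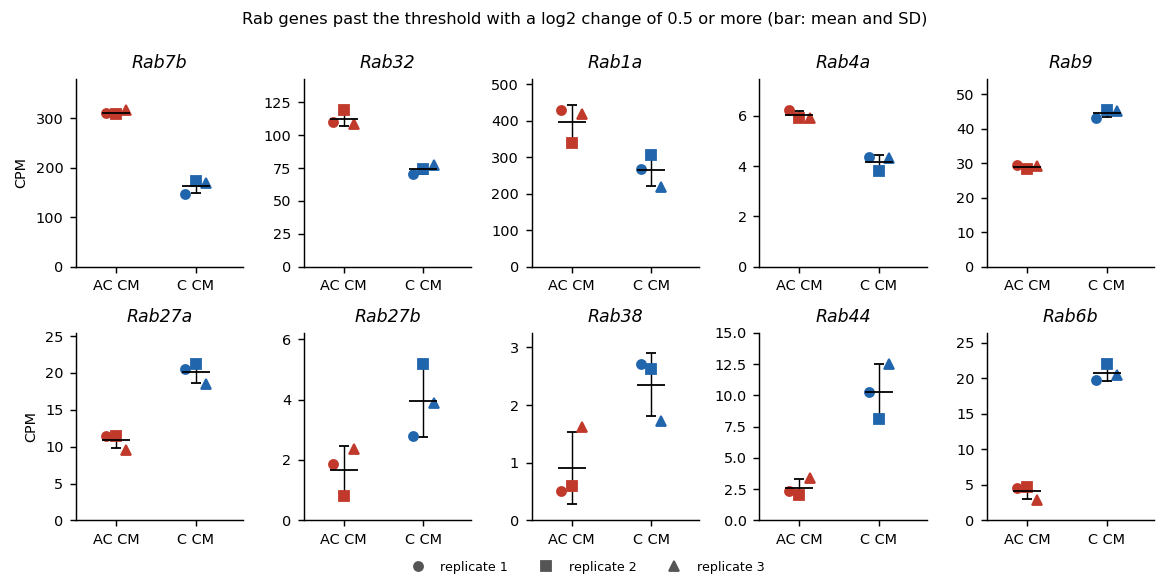
CPM in each sample (1 symbol per replicate) of the 10 Rab genes past the threshold with a log2 fold change of at least 0.5 in size (Rab11a, at 0.499, is just under), AC CM at left and C CM at right of each panel, each with its own axis from 0 and with bars for the mean and SD. Rab7b, Rab32, Rab1a and Rab4a were higher and the other 6 lower after AC CM, without overlap in any of the 10.

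Of the 13 genes tested of secretion and surface delivery, 0 rose, 3 fell (23.1%) and 10 did not pass, where 13.3% of all genes were called each way. Rab44, a large Rab that takes part in granule release from mast cells in mice, had 2.33, 2.02 and 3.4 CPM after AC CM and 10.3, 8.08 and 12.5 CPM after C CM. The AC CM samples were all under the C CM samples, 3.98-fold lower on average (log2 fold change -1.99, SE 0.24, adjusted p = 0.000424 by edgeR). Rab27a, which docks secretory granules and exosome-bearing endosomes at the plasma membrane, had 11.5, 11.5 and 9.61 CPM after AC CM and 20.6, 21.2 and 18.5 CPM after C CM. Its groups were also well apart (log2 fold change -0.89, SE 0.12, adjusted p = 0.000751). Rab27b, its relative with much the same task, had 1.86, 0.815 and 2.35 CPM after AC CM and 2.79, 5.17 and 3.88 CPM after C CM. AC CM replicate 3 and C CM replicate 1 lay close together, and the fall (log2 fold change -1.24, SE 0.38, adjusted p = 0.0435) was lost without AC CM replicate 1 or 2 and without C CM replicate 2 or 3, with an adjusted p of up to 0.145. Rab8a, Rab8b and Rab10, of delivery from the Golgi to the surface, had log2 fold changes of 0.08 (95% confidence interval -0.06 to 0.21), 0.04 (-0.15 to 0.23) and 0.08 (-0.07 to 0.23) with no call. Rab13, of epithelial junctions, had -0.25 (adjusted p = 0.124). Rab3a, Rab3b, Rab3d, Rab15, Rab26 and Rab37, of regulated release, ranged from -1.17 to 0.58 with no call. Rab37, known from mast cell granules, was lower in every AC CM sample (0.341, 0.698 and 0.564 CPM) than in the C CM samples (1.59, 0.702 and 1.21 CPM), by a narrow margin in replicate 2 of each group, at an adjusted p of 0.0807. Cd300lf, which overlaps Rab37 on the opposite strand, averaged 49.9 CPM after AC CM and 25.2 CPM after C CM.

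The last 5 genes, of cilia and other tasks, gave 1 fall. Rab40c, which carries a SOCS box and joins a ubiquitin ligase, had 30.6, 27.7 and 27.8 CPM after AC CM and 39.0, 38.4 and 33.2 CPM after C CM (log2 fold change -0.36, SE 0.09, adjusted p = 0.0201 by edgeR). The groups did not overlap, though the call was lost without AC CM replicate 2 or 3 and without C CM replicate 2, with an adjusted p of up to 0.0849. Rab19, Rab23, Rab28 and Rab40b had log2 fold changes between -0.42 and 0.17.

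Marker lists of other bone marrow cells summed lower after AC CM, except the list of megakaryocytes and erythroid cells, whose sum was mostly Pf4 and was higher. Of 9 neutrophil genes tested 8 were lower, and the list of 10 summed to between 170.5 and 187 CPM after AC CM and between 829.6 and 962.5 CPM after C CM. Of 7 dendritic cell genes tested 6 were lower (14.9 to 16.3 CPM summed after AC CM and 56.4 to 69.2 CPM after C CM), as were 6 of 6 of B, T and NK cells (9.95 to 10.3 CPM and 25.9 to 31.7 CPM). Of 4 genes of mast cells and basophils tested, Kit and Prss34 were lower. Mcpt8 and Cpa3 were not called, with log2 fold changes of -0.54 and 0.43. The list summed to between 3.63 and 4.85 CPM after AC CM and between 14.5 and 17.2 CPM after C CM. Most of that sum was Kit, with means of 2.98 CPM after AC CM and 13.1 CPM after C CM. Fcer1a was at 0 in every library. Of 8 genes of megakaryocytes and erythroid cells, Ppbp, Itga2b and Gp9 were lower, Pf4 was higher and 4 were not called. The list summed to between 479 and 510.2 CPM after AC CM and between 305 and 368 CPM after C CM. Nearly all of this was Pf4, with means of 479.8 CPM after AC CM and 308.5 CPM after C CM, so the higher sum does not describe the list as a whole. Of 12 macrophage genes 1 was higher and 5 were lower, and of 6 fibroblast genes 4 were lower (3194 to 3289 CPM summed after AC CM and 3976 to 5017 CPM after C CM). Of 5 chondrocyte genes tested, Col11a1 was higher, the list summed to between 108 and 110.2 CPM after AC CM and between 72.1 and 83.9 CPM after C CM, and Cnmd was at 0 in every library. No hepatocyte gene was called. The part of these cells in the Rab results was not tested.

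Related genes were then set against each other within each library, where library size and scaling cancel. Pairs were members that share a number, with Rab32 and Rab38 added by choice, where both genes averaged at least 1 CPM. This gave 13 pairs, whose coding sequences were between 60.6% and 78.4% identical. Ratios used counts plus 0.5. The ratio was higher in every AC CM sample in 6 pairs, lower in every AC CM sample in 1 pair and overlapped in 6. The share of other gene pairs that separate in this way was not computed. For single genes, a different measure, 22.6% and 22.1% had AC CM above and below without overlap. The first gene of a pair was set by the order of names, so 6 against 1 carries no direction. Pairs of Rab5 genes share members, and all 7 separated pairs but Rab5a over Rab5b hold a gene called above. Rab6a over Rab6b was 16.1, 16.8 and 27.5 after AC CM and 4.02, 3.11 and 3.96 after C CM, a difference of 2.41 in mean log2 ratio. Rab32 over Rab38 was 212, 198 and 66.9 after AC CM and 25.8, 28.2 and 44.8 after C CM, a difference of 2.14. For both pairs it was the scarcer gene that fell, while Rab6a was not called and Rab32 rose. Rab7 over Rab7b was 0.939, 0.944 and 1.08 after AC CM and 2.03, 1.73 and 1.75 after C CM (difference -0.90). Counts of the pair were thus about equal after AC CM, and Rab7 had the more counts after C CM. Per kilobase of exons Rab7 lay above Rab7b in both groups, with means of 117.8 and 67.4 CPM after AC CM and 114.2 and 35.2 CPM after C CM. Rab11a over Rab11b was 2.80, 2.74 and 2.61 after AC CM and 1.52, 1.67 and 1.62 after C CM (difference 0.76). The ratios of Rab4a over Rab4b, Rab1a over Rab1b and Rab5a over Rab5b differed by 0.61, 0.56 and 0.29. Each of these 7 pairs had an exact two-sided permutation p of 0.1, the smallest that 3 against 3 samples can give, and 0.186 adjusted over the 13 pairs. Rab27a over Rab27b overlapped, at 6.14, 14.0 and 4.09 after AC CM and 7.35, 4.08 and 4.76 after C CM, and both genes were lower after AC CM.

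**Figure D3:**
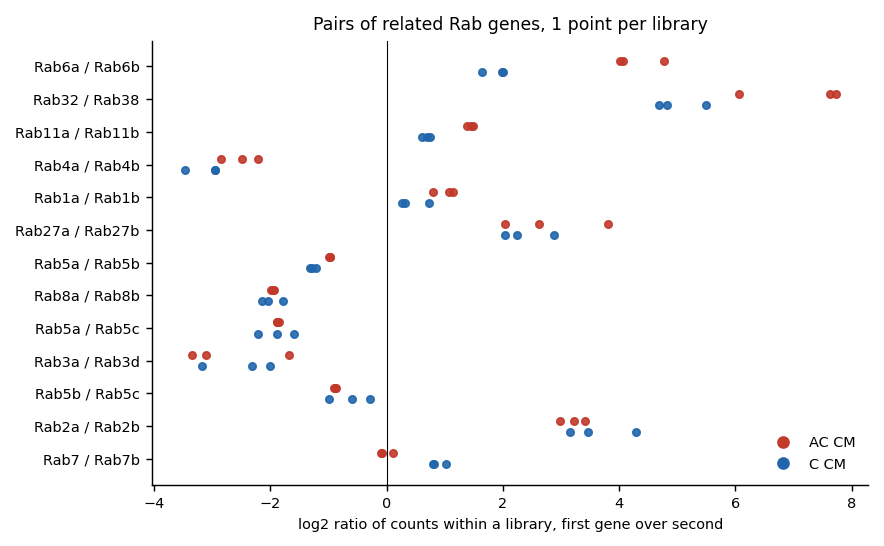
Log2 ratio of counts of 13 pairs of related Rab genes, first gene over second, with 1 point per library, AC CM in red and C CM in blue. Group means differ most for Rab6a over Rab6b (2.41) and Rab32 over Rab38 (2.14). In the latter, AC CM replicate 3 (6.06) and C CM replicate 3 (5.49) lie near each other. Rab7 over Rab7b is the 1 pair with all AC CM libraries below.

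Some Rab genes varied widely among the libraries of a group. By a measure chosen after the values were seen, 4 of the 42 members with a mean of at least 5 CPM (9.52%) ranged over 2-fold or more within a group, against 330 of 11052 such genes (2.99%). Rab22a, which sorts cargo in early endosomes, had 100.4, 94.9 and 27.6 CPM after AC CM and 92.6, 94.1 and 91.1 CPM after C CM, so AC CM replicate 3 alone was low. Its log2 fold change of -0.32 became 0.08 without that library, with no call either way. Rab43, of the Golgi and of antigen handling in dendritic cells, had 105, 114 and 121 CPM after AC CM and 38.1, 189 and 183 CPM after C CM. C CM replicate 1 was the low one, and without it the log2 fold change was -0.71 (adjusted p = 0.000191 by edgeR) in place of -0.27 (adjusted p = 0.812). Rab3d, of secretory granules, had 16.1, 45.6 and 42.4 CPM after AC CM and 24.9, 18.5 and 47.9 CPM after C CM, and Rab2b, of the Golgi, had 20.5, 17.3 and 15.8 CPM after AC CM and 17.2, 7.69 and 13 CPM after C CM. Neither was called with any 1 sample left out.

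**Figure D4:**
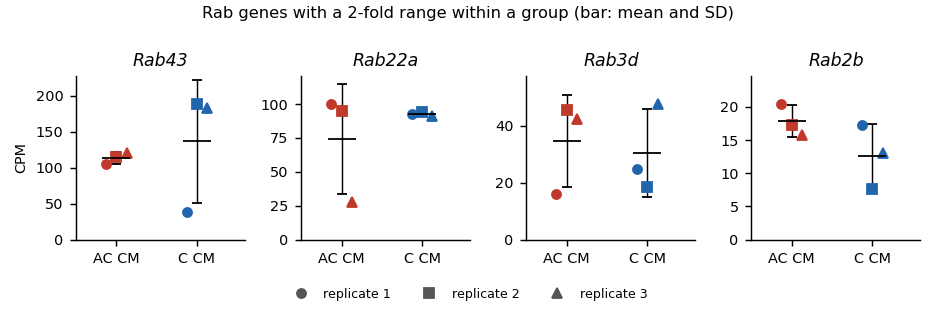
CPM in each sample (1 symbol per replicate) of the 4 Rab genes with a range of 2-fold or more within a group, AC CM at left and C CM at right, with bars for the mean and SD. Rab22a was low in AC CM replicate 3 (27.6 CPM) and Rab43 in C CM replicate 1 (38.1 CPM).

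The genes that control and read out Rab proteins changed in both directions. Of 75 regulators, 9 rose and 19 fell, or 12.0% and 25.3%, with a median log2 fold change of -0.06. Of all genes 13.3% were called each way, and of those with a mean of at least 5 CPM 18.8% were higher and 15.8% lower. Leaving out any 1 AC CM sample brought the falls to 12. Falls over all genes then went from 2371 to 1738, 1675 and 1647 without AC CM replicate 1, 2 and 3. By kind, of 35 exchange factors 6 rose and 7 fell, of 33 GTPase-activating proteins 2 rose and 10 fell, and of 7 genes of prenylation and recycling of Rabs 1 rose and 2 fell, and differences between the kinds were not tested. Dennd2c, a DENN domain protein that activates Rab9 in human cells, had 18.9, 23.7 and 19.0 CPM after AC CM and 7.26, 7.38 and 7.16 CPM after C CM (log2 fold change 1.5, SE 0.12, adjusted p = 5.8e-05 by edgeR). Rin2, an exchange factor for Rab5, had 343, 359 and 334 CPM after AC CM and 174, 201 and 184 CPM after C CM (0.89, SE 0.07, adjusted p = 4.75e-05). In both genes the groups were far apart. Sbf2 and Dennd4c, an exchange factor for Rab10, rose by 0.47 and 0.55 on the log2 scale, and Madd, an exchange factor for Rab3 and Rab27, and Dennd5a changed by -0.53 and -0.30. Among the GTPase-activating proteins Rab3gap2, a subunit of the complex that acts on Rab3, rose by 0.73 and Tbc1d2, which acts on Rab7, by 0.98, while Tbc1d8, Rabgap1l, Tbc1d4 (known from insulin-driven glucose transporter traffic) and Tbc1d22a changed by -1.01, -0.75, -0.62 and -0.44, with adjusted p-values between 0.00011 and 0.00139. Rabggtb, the catalytic subunit of the enzyme that adds the lipid, rose by 0.51 (adjusted p = 0.0187), and Rabac1 and Gdi2, which handles Rabs in the cytosol, changed by -0.48 and -0.25 (adjusted p = 0.0379 and 0.0475), but each of these 3 calls was lost without any 1 of the AC CM samples.

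Of 53 effectors tested, 12 rose and 10 fell, or 22.6% and 18.9%, with a median log2 fold change of 0.01. Of all genes tested 13.3% were called each way, and of those with a mean of at least 5 CPM 18.8% were higher and 15.8% lower, so the effector shares lay near that background. These counts were smaller without any 1 of the AC CM samples. Without AC CM replicate 1, 2 or 3 the rises numbered 4, 5 and 3 and the falls 5, 6 and 6. In the same fits the rises over all genes went from 2370 to 1713, 1546 and 1511. The falls over all genes went from 2371 to 1738, 1675 and 1647. Without C CM replicate 2 the effector rises numbered 7. Eea1, the tether that Rab5 recruits to early endosomes, had 207, 215 and 205 CPM after AC CM and 86.0, 109.6 and 104 CPM after C CM. The AC CM samples all lay far above the C CM samples (log2 fold change 1.06, SE 0.09, adjusted p = 7.12e-05 by edgeR). Rab11fip5, which binds Rab11 on recycling endosomes, averaged 166 ± 7.79 CPM after AC CM and 324 ± 30.7 CPM after C CM (-0.97, SE 0.08, adjusted p = 5.8e-05), in the opposite direction to Rab11a. Rilpl2, which binds Rab8 and Rab10 once a kinase has modified them, had 52.8, 50.2 and 51 CPM after AC CM and 104, 90.0 and 85 CPM after C CM (-0.86, SE 0.09, adjusted p = 0.000172). Appl2, an effector of Rab5, and Ocrl, a lipid phosphatase that Rabs recruit, rose by 0.42 and 0.46, and Rabep2, of early endosomes, changed by -0.39, a call lost without AC CM replicate 2 or 3.

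**Figure D5:**
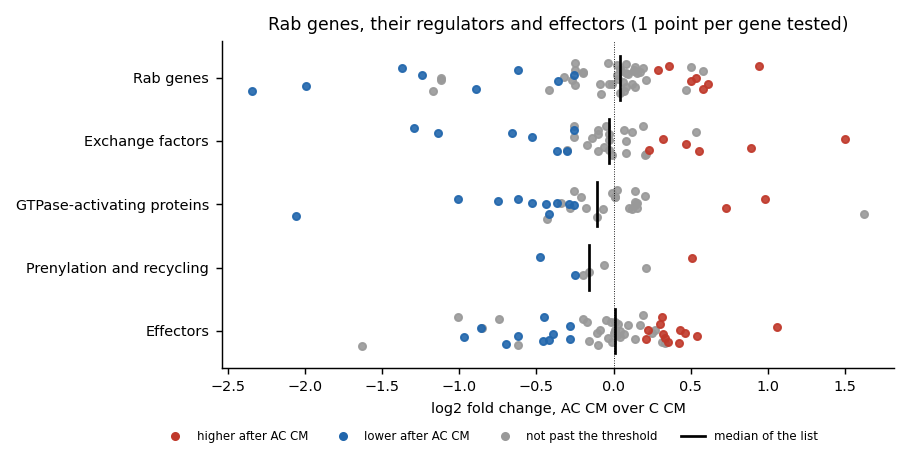
Log2 fold change (AC CM over C CM) of each gene tested among the Rab genes, 3 lists of regulators and the effectors, with 1 point per gene (vertical scatter has no meaning) and a bar for each list's median. Points lie on both sides of 0 in every list, and the GTPase-activating proteins have 10 falls and 2 rises.

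Promoter sequence was described for members that moved. RefSeq windows of GRCm38.p6, from 250 bases before to 50 bases after a gene start, were at hand for 48 of the 59 members (60 windows). Of the called members, Rab7b, Rab4a, Rab44, Rab38 and Rab27b had none. The member windows were rich in G and C, with a median of 61.2% and 19.5 CpG against 52.7% and 7 CpG in all 32851 windows. On either strand, the E-box CACGTG was in 6 member windows (10%, and 7.15% of all), the AP-1 motif TGACTCA in 3 (5.0%, and 5.2% of all), and the ETS motif GGAAGT in 16 (26.7%, and 23.8% of all), where none of the 3 motifs holds another. Windows are shown 5′ to 3′ for Rab11a (chr9:64737707-64738006, minus strand) and Rab32 (chr10:10558158-10558457, minus strand), which rose and hold GGAAGT, in capitals, and for Rab6b (chr9:103111824-103112123, plus strand), which fell and holds none of the 3. Matches were not limited to one direction: Rab27a and Rab9, which fell, also hold GGAAGT, and Rab1a, Rab14 and Rab21, which rose, do not.
Rab11a: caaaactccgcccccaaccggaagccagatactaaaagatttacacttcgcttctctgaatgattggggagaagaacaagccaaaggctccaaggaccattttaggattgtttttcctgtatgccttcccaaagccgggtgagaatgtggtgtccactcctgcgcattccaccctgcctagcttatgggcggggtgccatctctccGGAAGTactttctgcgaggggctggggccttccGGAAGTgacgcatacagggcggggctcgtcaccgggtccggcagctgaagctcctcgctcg
Rab32: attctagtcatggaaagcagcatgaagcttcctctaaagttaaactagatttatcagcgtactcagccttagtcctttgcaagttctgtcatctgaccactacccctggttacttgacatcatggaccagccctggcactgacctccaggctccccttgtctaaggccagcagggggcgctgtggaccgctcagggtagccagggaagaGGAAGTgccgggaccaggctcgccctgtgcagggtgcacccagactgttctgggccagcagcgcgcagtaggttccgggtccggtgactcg
Rab6b: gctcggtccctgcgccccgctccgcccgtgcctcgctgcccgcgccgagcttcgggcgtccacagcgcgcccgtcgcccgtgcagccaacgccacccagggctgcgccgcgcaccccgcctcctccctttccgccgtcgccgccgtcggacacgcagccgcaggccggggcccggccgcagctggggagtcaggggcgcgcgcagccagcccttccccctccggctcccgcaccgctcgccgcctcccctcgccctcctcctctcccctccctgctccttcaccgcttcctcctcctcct
Of the 60 windows that of Rab6b had the highest share of G and C, at 78.7%. A match is a description of letters and not of a bound site.

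The members lay on 18 chromosomes, and few were neighbours. Rab7b (chromosome 1, 131688695 to 131715439, plus strand) ended 152 kb before Rab29 (131867224 to 131872887), whose log2 fold change was 0.08. Rab43 lay 187 kb from Rab7 on chromosome 6. Of the 59, 19 overlapped another gene with at least 1 CPM, 15 of them a gene on the opposite strand. Whether counting used strand is not given in the sources used here, so reads from such stretches may not be separable. Among the called members, Rab40c, Rab11b and Rab44 had such a partner. Rpl35a-ps3, opposite Rab44, had 3.54 CPM after AC CM and 3.31 CPM after C CM. Gm17251, opposite Rab11b, had 2.53 CPM after AC CM and 4.28 CPM after C CM (log2 fold change -0.76, the same direction as Rab11b). The 3 partners of Rab40c, Mettl26, Gm16278 and Gm26694, had log2 fold changes of -0.17, -0.16 and 0.04, and AC147560.1, which shares 107 bases with Rab11a on the same strand, had 10.9 CPM after AC CM and 4.48 CPM after C CM. Of the members, 7 were higher and 8 lower in the authors' deposited table at an adjusted p under 0.05, which were the same 15 genes as here in the same directions.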

How the data were processed

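RNA was measured in 6 samples (3 AC CM, 3 C CM), grouped by the treatment in their titles. The deposited table gives whole read counts per gene, not normalized by the authors; the authors' normalized signal columns (counts divided by a constant per sample) and their log2 fold changes and p-values were deposited beside them and were not used for tests. Per the submitters' processing notes, the tools were DESeq2 1.18.1, R 3.4.3, HISAT2 2.1.0 and fastp 0.17.1, with no roles. The genome build and the counting program are not given in these sources. There were 0 unused columns of other samples. Counts were filtered (filterByExpr, 17863 genes kept), scaled by TMM and then compared in edgeR 4.0.16 (R 4.3.3) by its robust quasi-likelihood test, with Benjamini-Hochberg adjustment over all genes. DESeq2 1.42.0, limma-voom 3.58.1, other scalings and filters, the replicate number as a block, counts divided by 4 (counts of 4 were commoner than counts of 3), the 20 most counted genes left out, and samples left out were alternatives. For the named regulators and effectors, the sums and the ratios, alternatives were chosen after seeing the data. The procedure was tested on simulated data. CPM use TMM-scaled library sizes. Exon and coding lengths come from GENCODE M21, matched by gene identifier; 6 members (Rab12, Rab18, Rab1b, Rab31, Rab44, Rab5a) have other coordinates there. Python 3.11.15, pandas 2.3.3, scipy 1.17.1 and Biopython 1.88 were used. Limits from counts cover counting error only. Members and lists were chosen with earlier results of these data known. Values in every sample are given for members past the threshold with a log2 fold change of at least 0.5 in size and for the 5 with most CPM per kilobase, along with others named after their values were seen; of each pathway list, up to 6 genes with the smallest p among those called are named.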

Additional observations from a re-analysis of the deposited data

How the results depend on the processing

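Of the 15 Rab calls, 5 (Rab6b, Rab44, Rab27a, Rab32 and Rab7b) held in all 16 alternatives and 8 in every fit that left out 1 sample, and no call reversed. Over 869 values of single members, 825 stayed on their side of the threshold, 39 lost a call and 5 gained one (Rab43, Rab1b, Rab2a and Rab5b without C CM replicate 1, and Rab5b with upper quartile scaling). Another scaling moved the median of all genes to no lower than -0.028. Leaving out 1 sample gave 5 to 8 Rab genes higher and 4 to 9 lower, 1511 to 2667 of all genes higher and 1647 to 2356 lower, 6 to 10 regulators higher and 12 to 18 lower, and 3 to 15 effectors higher and 5 to 10 lower. Without AC CM replicates 2 and 3, where the lone AC CM sample is assumed to vary like the others, 2 Rab genes were higher and 4 lower, 510 of all genes were higher and 764 lower, 4 regulators were higher and 5 lower, and 1 effector was higher and 3 lower. The summed Rab level differed by 345.5 to 495.8 CPM with 1 sample left out. With the replicate number as a block, 6 Rab genes were higher and 5 lower. Whether samples of the same number belong together is not given in the labels. Deviations of same-numbered samples from their group means correlated at -0.105, 0.046 and 0.037 over 13780 genes. A sample did not always correlate best with its own number. With 3 samples per group such correlations cannot decide whether the samples are paired. The cause of these changes was not tested beyond the loss of samples. Limits: the scarce Rab38 and Rab27b rest on few counts per library, and a level under about 0.04 CPM could not be told from 0 at this depth.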
